A study of Mus musculus with 10 samples.

Results

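DNA replication genes were followed in mouse oocytes and early embryos through 45 genes that encode the proteins which prepare, start and carry out the copying of the genome. The members are the rows of the expression table whose gene name is 1 of these 45 names. The rule itself uses no measured value. Of the 45, 43 had a row among the 21437 genes of the table, and Pole2 and Rrm1 were not analysed here. In total, 36 members reached at least 1 FPKM (fragments scaled to transcript length and to the mapped fragments of the library) in at least 2 of the 10 libraries and entered the tests with 8726 genes in all, while 7 members, Mcm2, Mcm5, Pola1, Pold1, Rfc4, Rfc5 and Lig1, did not.

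The study asked what the RNA-binding nuclease AGO2 does to maternal mRNAs, and its expression data hold 5 groups of 2 libraries each. Control libraries, labelled wild type, came from MII oocytes (eggs arrested in the second meiotic metaphase), from embryos at a middle point of the 2-cell stage and from early embryos of 4 cells, and Ago2 kd libraries, labelled Ago2-kd, came from 2-cell and 4-cell embryos. The strain is labelled ICR in each sample and the tissue embryo or embryo blastomeres. The protocol gives superovulated 7-week-old F1 females (PMSG, then hCG) mated with F1 males. The study's methods give ICR females for the oocytes, so strain and stage cannot be told apart between oocytes and embryos. By those methods the knockdown was a microinjection of Ago2 siRNAs together with an antibody against AGO2, with a scrambled siRNA as the negative control. The labels describe the control embryos as wild type only. The number of embryos in a library and the origin of the replicates are not given in the labels, so p-values measure the spread between these samples, which may be technical. In such bulk samples fewer cells and less RNA per cell cannot be told apart. A row for Ago2 was not analysed here, so the knockdown was not checked in these libraries.

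As background, replication is set up in a fixed order. The origin recognition complex (ORC1 to ORC6) marks origins, and CDC6 and CDT1 help it to load the ring-shaped helicase MCM2 to MCM7, a step called licensing that geminin (Gmnn) blocks by binding CDT1. The kinase CDC7 with its activator DBF4, together with CDC45, the GINS complex and MCM10, then turns the loaded ring into the active helicase. Polymerase alpha with primase lays down primers, polymerases delta and epsilon extend them on the sliding clamp PCNA that the RFC complex loads, and RPA coats single-stranded DNA. FEN1 and ligase I join the fragments of the lagging strand, and ribonucleotide reductase supplies the deoxynucleotides. The egg carries stores of many of these mRNAs and proteins through the first divisions, in which much of the maternal mRNA is cleared and the embryo's own genome becomes active.

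Summed marker levels followed the stages that the labels name, though not every single marker did. The summed level of 8 oocyte genes, all with a row, was 12448 and 14306 FPKM in MII oocytes, between 1375 and 1763 FPKM in the 2-cell libraries and between 6.95 and 41.2 FPKM in the 4-cell libraries. Genes of the 2-cell burst (6 of 10 with a row) summed to 601 and 688 FPKM in 2-cell controls and to 321 and 464 FPKM in 2-cell Ago2 kd, against 89.6 and 115 FPKM in MII oocytes and at most 28.9 FPKM at the 4-cell stage. Single genes could differ from these sums. Bmp15 of the oocyte list had 605 and 449 FPKM in MII oocytes and 787 and 436 FPKM in 2-cell controls. Tcstv1 of the 2-cell burst had 71.6 and 81.5 FPKM in MII oocytes and 56.6 and 62.1 FPKM in 2-cell controls. Of 12 cumulus and granulosa cell markers 1 had a row, Foxl2, listed at 0 in each library, and of 6 sperm markers 3 had a row and summed to at most 1.78 FPKM.

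Library quality set limits on what a low value means. The FPKM of all genes summed to 450124 and 458874 in oocytes and to between 178681 and 326352 in the embryo libraries. The depth of the libraries is unknown because FPKM hold no read counts. Gapdh reached no more than 0.167 FPKM in any library, and Pcna, which encodes the clamp that dividing cells use at each fork, no more than 2.06 FPKM. Therefore no value at or near 0 was taken to show that an mRNA was missing. The library of 4-cell Ago2 kd replicate 1 stood apart: of 2845 genes above 10 FPKM in the other replicate, 416 (14.6%) were below 0.1 FPKM in it, compared with at most 5.81% in the other 9 libraries. Among the members, 7 of 22 were lost in that way (Orc1, Orc5, Orc6, Cdt1, Cdc45, Gins3 and Rfc1). The 2 libraries of 2-cell Ago2 kd embryos, in turn, held exactly the same value above 0 for 193 genes (among them Tcstv3 of the 2-cell burst), 100 of them above 1 FPKM, and of all 45 pairs of libraries this was the only 1 to share any value above 1 FPKM. None of these genes was a member, but 125 of them were among the genes tested, so results were also computed without these genes and without these libraries.

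**Figure D1:**
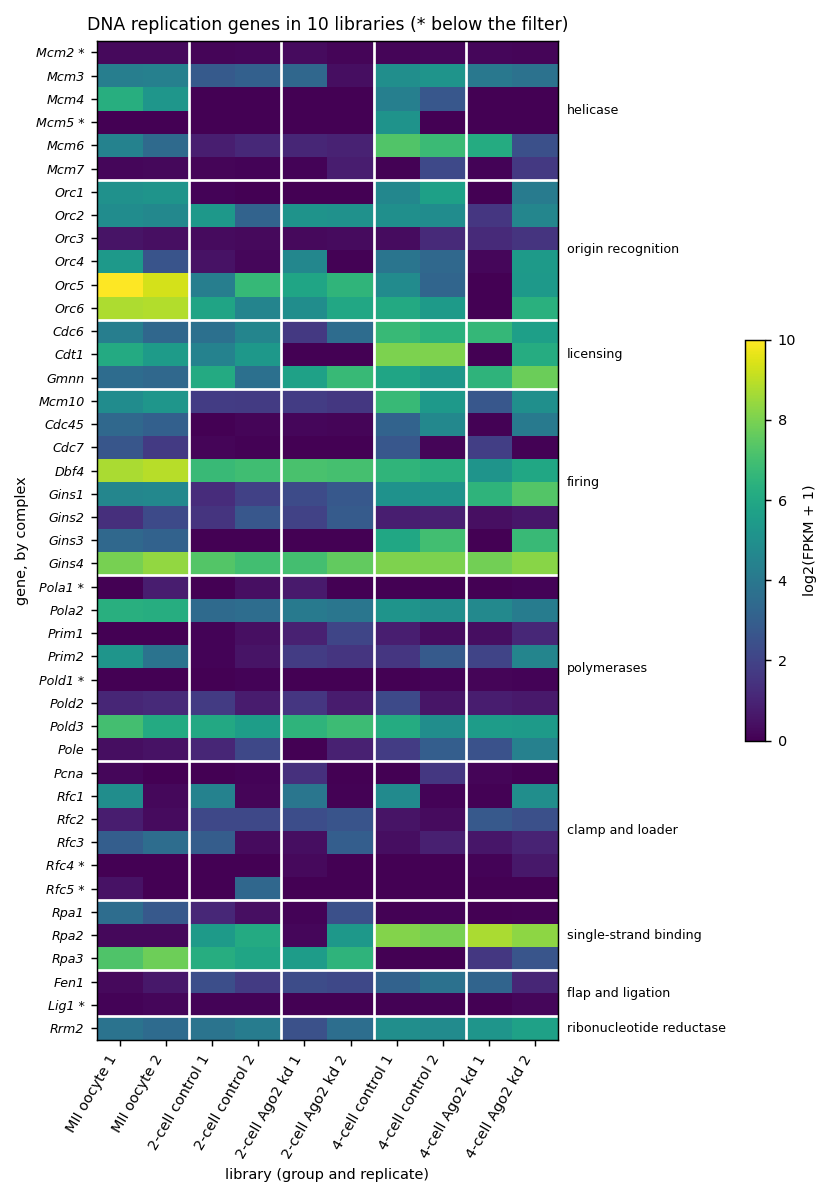
Level of the 43 members with a row, as log2(FPKM + 1) (color scale), in the 10 libraries (columns, by group and replicate), with genes in rows by complex and an asterisk at the 7 members below the filter. Orc5, Orc6, Dbf4 and Gins4 are bright in oocytes, most rows are dark in the 2-cell columns, and the column of 4-cell Ago2 kd replicate 1 is dark in Orc1, Orc5, Orc6, Cdt1 and Gins3, where replicate 2 is not.

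The summed level of the replication genes was lower in 2-cell controls than in oocytes and higher again in 4-cell controls, with a few members carrying most of the first difference. The 43 members summed to 2963 and 2614 FPKM in MII oocytes, to 741 and 693 FPKM in 2-cell controls and to 1854 and 1607 FPKM in 4-cell controls, and these ranges did not overlap. Orc5, Orc6 and Dbf4 made up 73.4% of the difference between the means of oocytes and 2-cell controls. In Ago2 kd embryos the sums were 675 and 937 FPKM at the 2-cell stage and 1204 and 1744 FPKM at the 4-cell stage, overlapping the control values at both stages. The members took 0.658% and 0.570% of all FPKM in MII oocytes, 0.378% and 0.340% in 2-cell controls and 0.690% and 0.666% in 4-cell controls.

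From MII oocytes to 2-cell controls, 7 of the 36 members tested fell and 2 rose at an adjusted p below 0.05 in limma, a linear model on log2(FPKM + 1) with Benjamini-Hochberg adjustment over all 8726 genes. Among all genes tested, 14.2% fell and 6.54% rose. Without a test, 23 members had both 2-cell values below both oocyte values and 7 had both above, where the same held for 37% and 25% of all genes. The median log2 difference was -1.19 over the members and -0.06 over all genes. Among genes with no group at 0 it was -1.01 over the members and -0.30 over all genes. The size of this fall depended on the scale: with the libraries scaled to the same total, the median was -0.14 over the members and 0.42 over all genes, and 4 members fell.

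From 2-cell to 4-cell controls, 10 members rose and 2 fell in the same fit, with 21.1% of all genes rising and 17.5% falling. Values did not overlap in 24 members, 19 higher and 5 lower at the 4-cell stage, beside 38.4% and 30.2% of all genes. The median log2 difference was 0.88 over the members and 0.24 over all genes. Among genes with no group at 0 it was 0.86 over the members and 0.46 over all genes. Of the 7 members that fell before, 5 were among the 10 that rose (Mcm4, Mcm10, Orc1, Gins1 and Pola2). Both comparisons use the 2-cell control libraries, so low values there favour both calls in any gene. The share of all genes with both calls is not given, so this overlap is not read as particular to the members.

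**Figure D2:**
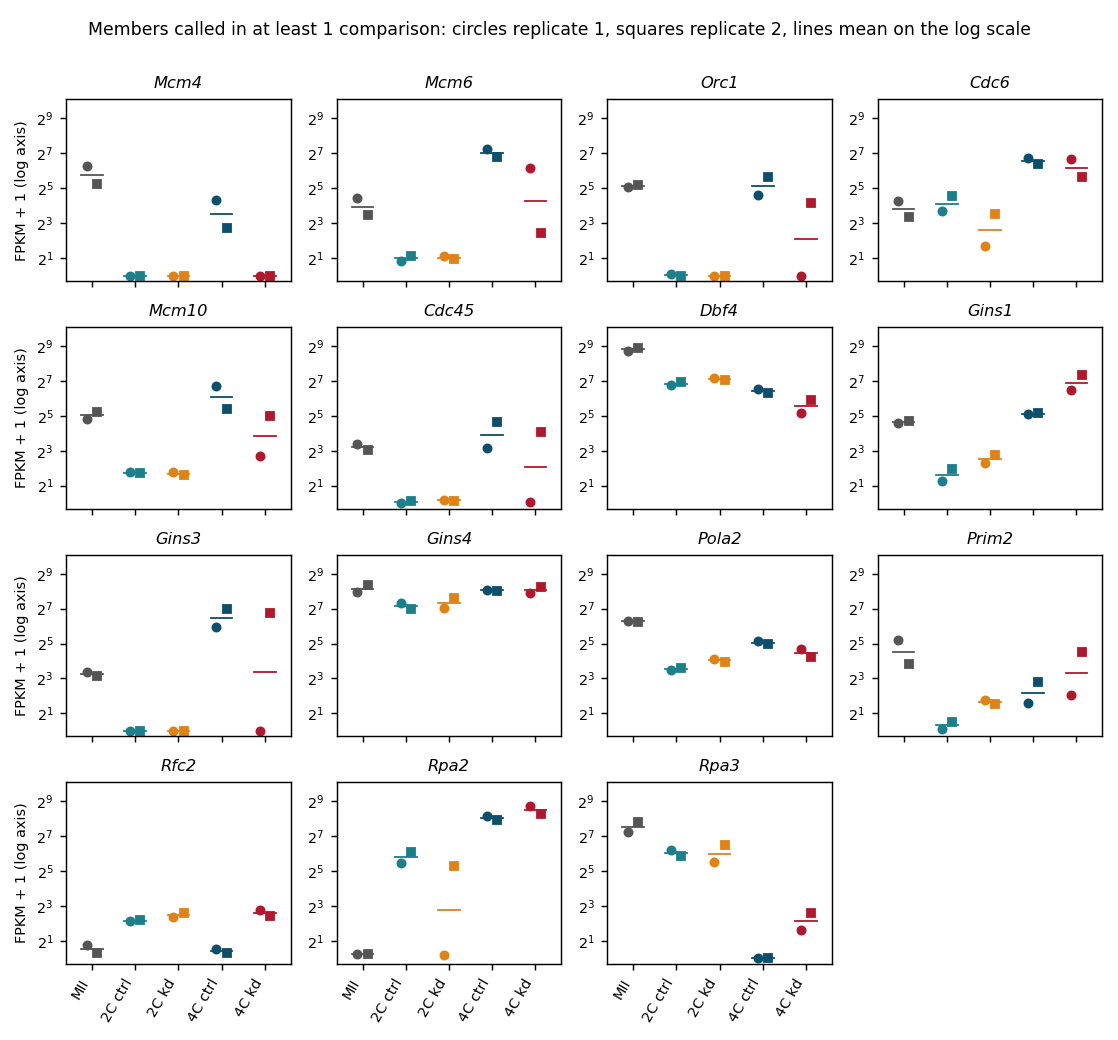
Level of the 15 members called in at least 1 comparison, as FPKM + 1 on a log axis, in each library of the 5 groups (MII oocytes, 2-cell and 4-cell controls, 2-cell and 4-cell Ago2 kd); circles are replicate 1, squares replicate 2 and lines the mean on the log scale. Mcm4, Mcm6, Mcm10, Orc1, Cdc45 and Gins3 are at or near the bottom of the axis at the 2-cell stage and higher in oocytes and 4-cell controls, while Rpa3 goes from over 50 FPKM in 2-cell controls to 0 in 4-cell controls.

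Among the subunits of the helicase ring, Mcm4 and Mcm6 had the clearest course. Mcm4 (chr16:15623897-15637400 of GRCm38) had 77.1 and 37.2 FPKM in MII oocytes, was listed at 0 in both 2-cell controls and had 19.1 and 5.63 FPKM in 4-cell controls. It was also listed at 0 in all 4 Ago2 kd libraries, so no fold is given. The oocyte and 4-cell control values thus lay above all others. The limma fit called the fall from oocytes (adjusted p = 0.00113), the rise to the 4-cell stage (adjusted p = 0.00436) and the lower level in 4-cell Ago2 kd embryos (adjusted p = 0.025). The last of these calls was not kept in 9 of 20 alternative analyses, which were the fit of the 2 groups alone (adjusted p = 0.357), those without 4-cell Ago2 kd replicate 1 (adjusted p = 0.0669) or replicate 2 (adjusted p = 0.0557) and those without 2-cell control replicate 1 (0.0555) or 2 (0.056), 2-cell Ago2 kd replicate 1 (0.0531) or 2 (0.0533) or both of these (0.055), or 4-cell control replicate 1 (0.051).

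Mcm6 (chr1:128331590-128359664) had 20.6 and 9.98 FPKM in MII oocytes, 0.811 and 1.20 FPKM in 2-cell controls and 154 and 111 FPKM in 4-cell controls. The 4-cell control values were thus the highest in the series, above the oocyte values, and did not overlap those at the 2-cell stage. The rise was 6.05 on the log2 scale (SE 1.09, adjusted p = 0.00539, limma). The Ago2 kd libraries had 1.13 and 0.954 FPKM at the 2-cell stage, close to control, and 69.97 and 4.45 FPKM at the 4-cell stage. Both 4-cell values lay below both controls but differed widely from each other, and the difference of -2.75 (SE 1.09) did not pass (adjusted p = 0.292, limma). Without replicate 1 it was -4.60 (adjusted p = 0.00985), and without replicate 2 it was -0.89 (adjusted p = 0.495), so that call rested on which library was used.

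Mcm3 had 6.09 and 7.38 FPKM in 2-cell controls and 29.4 and 35.1 FPKM in 4-cell controls, with 15.3 and 12.7 FPKM in 4-cell Ago2 kd, and no difference of Mcm3 passed the test. Mcm7 reached 3.62 FPKM at most, in 1 of the 4-cell controls. Mcm2 stayed at or below 0.234 FPKM in all libraries, and Mcm5 was listed at 0 in 9 libraries and at 34.5 FPKM in 4-cell control replicate 1. The 6 subunits form a single ring in the cell, yet their listed levels ranged from below 0.2 to 154 FPKM in the same 4-cell control library.

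Promoter sequence is shown for 3 of these helicase and firing genes as examples. Letters that NF-Y factors are known to bind stand close to all 3 starts. Those of E2F factors stand close to the start of Mcm6 only. The sequences below are the 120 bases before a RefSeq start (GRCm38.p6), printed on the gene's strand, with matches to TTTCCCGC, TTTCGCGC, TTTGCCGC or TTTGGCGC (the E2F letters) and to CCAAT (the NF-Y letters), on either strand, in capitals. The first is from Mcm6 (chr1:128359706-128359825, minus strand), where the first E2F matches overlap each other, the next from Mcm10 (chr2:5012792-5012911, minus strand) and the last from Mcm3 (chr1:20820313-20820432, minus strand).
Mcm6: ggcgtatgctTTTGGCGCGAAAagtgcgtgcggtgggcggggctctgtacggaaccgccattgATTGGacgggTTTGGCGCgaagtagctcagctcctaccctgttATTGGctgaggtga
Mcm10: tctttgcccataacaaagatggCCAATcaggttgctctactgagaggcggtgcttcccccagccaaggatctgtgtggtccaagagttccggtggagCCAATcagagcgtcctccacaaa
Mcm3: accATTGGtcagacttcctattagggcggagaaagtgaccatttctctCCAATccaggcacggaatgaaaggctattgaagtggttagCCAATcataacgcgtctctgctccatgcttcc
The window of Mcm6 holds 3 E2F and 2 CCAAT matches, that of Mcm10 2 CCAAT matches and that of Mcm3 3 CCAAT matches. Of the 3, Mcm6 and Mcm10 rose at the 4-cell stage and Mcm3 did not pass. These examples do not stand for all helicase and firing genes. Mcm2, Cdc7 and Dbf4 held no match of either kind in such windows.

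Over the 250 bases before a start, 9 of the 46 RefSeq promoters of the members (19.6%) held an E2F match, compared with 1.86% of all 32817 promoters and 3.53% of the 6828 promoters of tested genes. CCAAT stood in 24 of the 46 (52.2%), compared with 33.8% and 37.1%. The other replication genes described further on were like the members in E2F matches, with 8 of 41 promoters (19.5%), and had CCAAT in 41.5%. The median GC content was 61.4% in the member promoters, 52.4% in all and 59.6% in those of tested genes. A promoter was at hand for 37 members and not for Gins1, Gins2, Gins4, Gmnn, Mcm4, Pole, Prim2 and Rfc2. Of the 10 members that rose at the 4-cell stage, 7 had a promoter. Of these, 4 held an E2F match (Cdc6, Gins3, Mcm6 and Orc1) and 5 a CCAAT, while among the other 21 tested members with a promoter 3 held an E2F match and 14 a CCAAT. A further 9 members with a promoter were not tested and held an E2F match in 2. These are matches of letters, given as a description without a test, and binding was not measured.

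Of the groups of members, origin recognition had the highest summed level in oocytes, most of it from Orc5 and Orc6. The 6 mRNAs summed to 1548 and 1181 FPKM there, to 115 and 133 FPKM in 2-cell controls and to 162 and 139 FPKM in 4-cell controls. Orc5 (chr5:22486485-22550429), which encodes a subunit of the core ring of ORC, had 1015 and 656 FPKM in MII oocytes, the highest of the 43 members. It had 18.3 and 102 FPKM in 2-cell controls, 57.5 and 92.2 FPKM in 2-cell Ago2 kd, 27.3 and 8.47 FPKM in 4-cell controls, and 0.00242 and 42.1 FPKM in 4-cell Ago2 kd. All embryo values were thus far below the oocyte values, but they scattered between replicates. The difference from oocytes to 2-cell controls of -4.19 did not pass (SE 1.69, adjusted p = 0.137, limma).

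Orc6 (chr8:85299632-85308278), whose product joins the ORC core and is needed for loading the helicase, had 431 and 460.1 FPKM in MII oocytes and 56.5 and 22.0 FPKM in 2-cell controls. Later values were 29.0 and 62.0 FPKM in 2-cell Ago2 kd, 66.8 and 42.1 FPKM in 4-cell controls, and 0 and 81.4 FPKM in 4-cell Ago2 kd. Again the oocyte values stood alone, and the difference to 2-cell controls of -3.62 (SE 1.80) did not pass (adjusted p = 0.226, limma), in a gene whose 4-cell Ago2 kd replicates lay at 0 and at the highest embryo value.

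Orc1 (chr4:108579423-108614833), the subunit whose level is regulated through the cell cycle in mammals, followed the course of Mcm4. It had 32.5 and 35.5 FPKM in MII oocytes, 0.0712 and 0 FPKM in 2-cell controls, and 23.6 and 49.8 FPKM in 4-cell controls. In Ago2 kd embryos it was listed at 0 in both 2-cell libraries and at 0 and 16.8 FPKM in the 4-cell libraries. The 2-cell values were far below those of both other stages, with a fall of 5.08 (SE 1.20, adjusted p = 0.0254) and a rise of 5.10 on the log2 scale (SE 1.20, adjusted p = 0.0151) in limma. The fall was not kept in 6 of 20 alternatives, which included leaving out any 1 oocyte or 2-cell control library (highest adjusted p = 0.121). The rise was not kept without either 2-cell control (0.0646 each) or without 4-cell control replicate 2 (0.0813). Both 4-cell Ago2 kd values were below both controls, with a difference of -3.07 (SE 1.20, adjusted p = 0.284), which was -0.99 (adjusted p = 0.378) without replicate 1 and -5.14 (adjusted p = 0.00329) without replicate 2.

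Orc2 had between 8.19 and 39.6 FPKM in 9 libraries and 2.00 FPKM in 4-cell Ago2 kd replicate 1, Orc3 stayed at or below 1.84 FPKM, and Orc4 ranged from 0.0349 to 42.8 FPKM and differed widely between the replicates of 4-cell Ago2 kd (0.144 and 42.8 FPKM) and of 2-cell Ago2 kd (23.4 and 0.0349 FPKM). None of these genes passed in any comparison. The sum of the 6 ORC mRNAs was 3.40 FPKM in 4-cell Ago2 kd replicate 1 and 208 FPKM in replicate 2, below and above both 4-cell controls.

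**Figure D3:**
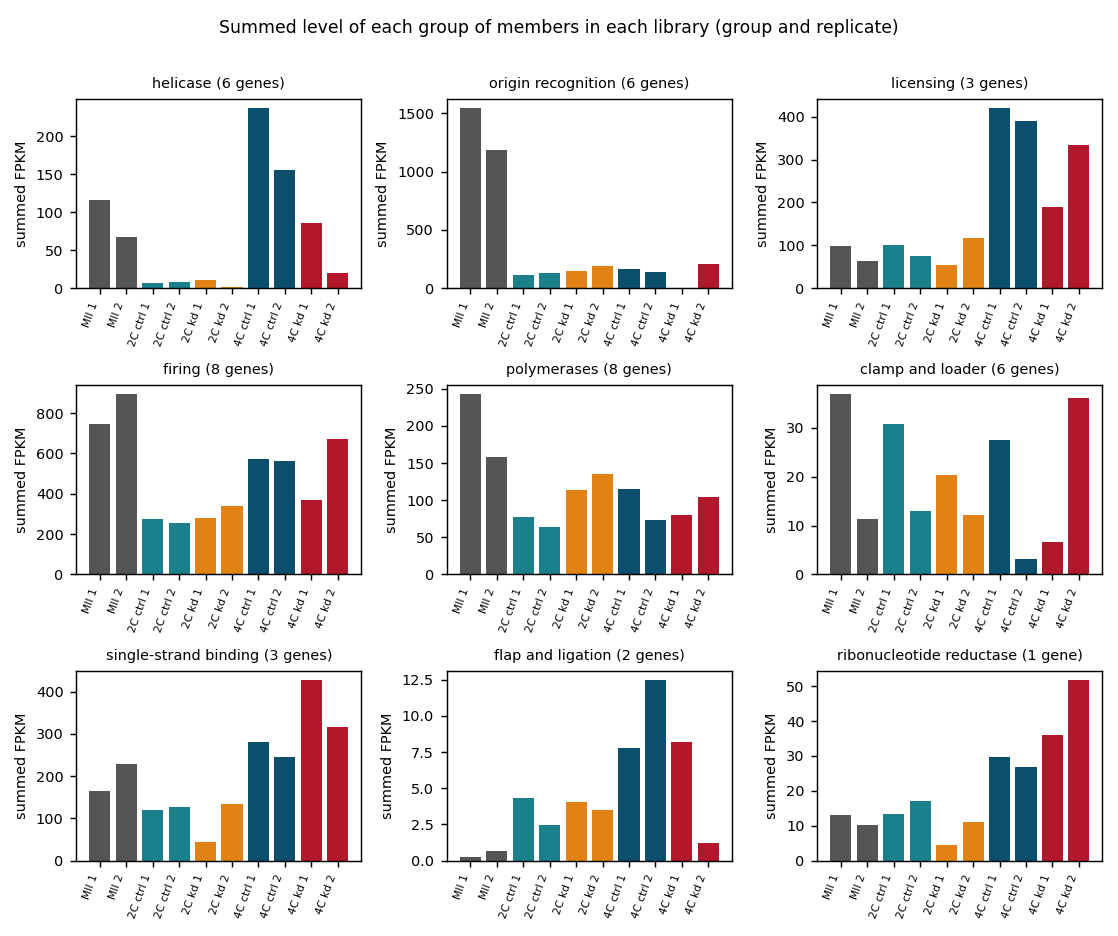
Summed FPKM of the members of each group of genes (panels) in each of the 10 libraries (bars, from 0). Origin recognition is highest in the 2 oocyte libraries (1548 and 1181 FPKM) and near 0 in 4-cell Ago2 kd replicate 1 (3.40 FPKM), the helicase sum is highest in 4-cell controls (237 and 156 FPKM), and the replicates of the clamp loader panel differ within groups.

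Of the licensing genes, Cdc6, whose product helps ORC to load the helicase, rose late. It had 18.4 and 9.03 FPKM in MII oocytes, 11.8 and 22.5 FPKM in 2-cell controls and 106 and 82.7 FPKM in 4-cell controls, with 2.19 and 10.6 FPKM in 2-cell and 100.2 and 48.7 FPKM in 4-cell Ago2 kd. Oocyte and 2-cell values overlapped, and the 4-cell values were above both, with a rise of 2.45 (SE 0.73, adjusted p = 0.0361, limma) that did not pass in 12 of 20 alternatives. These 12 included the replicate block (a model that also holds the replicate number, adjusted p = 0.0555) and the analyses that left out any single oocyte, 2-cell control or 4-cell control library. Cdc6 lies at chr11:98907801-98923940.

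Cdt1 (chr8:122568015-122573554), the licensing factor that geminin holds back, had 68.4 and 44.3 FPKM in MII oocytes, 20.7 and 39.6 FPKM in 2-cell controls and 257 and 267 FPKM in 4-cell controls. In Ago2 kd embryos it was listed at 0 in both 2-cell libraries, and at 0 and 72.6 FPKM in the 4-cell libraries. Every Ago2 kd value except the last was thus 0, and both groups lay below their controls, yet neither difference passed with Benjamini-Hochberg adjustment in limma (2-cell adjusted p = 0.649, 4-cell difference -4.94, SE 1.72, adjusted p = 0.219). The spread between the 4-cell Ago2 kd replicates entered both tests. Without replicate 1 of that group the 2-cell adjusted p was 0.0187 and the 4-cell difference was -1.84 (adjusted p = 0.109), and without replicate 2 these were 0.0197 and -8.04 (adjusted p = 0.000824).

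Gmnn, the gene of geminin, was at 10.7 and 9.31 FPKM in MII oocytes, 69.0 and 11.96 FPKM in 2-cell controls and 58.0 and 38.8 FPKM in 4-cell controls. Ago2 kd embryos had 51.1 and 106 FPKM at the 2-cell stage and 90.0 and 213 FPKM at the 4-cell stage. The last pair lay above both controls, but no comparison of Gmnn passed (4-cell difference 1.53, SE 0.84, adjusted p = 0.475, limma).

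Among the genes of origin firing, Dbf4 and Gins4 had at least 35.6 FPKM in every library, though Dbf4 fell from oocytes to 2-cell controls. Dbf4 (chr5:8396973-8422716), the activating subunit of the CDC7 kinase, had 425 and 483 FPKM in MII oocytes, 109 and 120.1 FPKM in 2-cell controls and 91.0 and 77.2 FPKM in 4-cell controls, and fell by 1.98 on the log2 scale at the first step (SE 0.30, adjusted p = 0.00483, limma). This fall was -0.75 (adjusted p = 0.072) with libraries scaled to the same total and -0.79 (adjusted p = 0.0654) with quantile normalization, and passed in neither. Ago2 kd embryos had 141 and 130.1 FPKM at the 2-cell stage and 35.6 and 60.3 FPKM at the 4-cell stage. The 2-cell Ago2 kd values lay above and the 4-cell values below the controls of their stage, with a 4-cell difference of -0.84 (SE 0.30, adjusted p = 0.233), which passed in limma only without Ago2 kd replicate 2 (-1.21, adjusted p = 0.0426). Its kinase partner Cdc7 had 5.37 and 2.29 FPKM in MII oocytes and between 0.00673 and 5.59 FPKM in embryos, and did not pass in any comparison.

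The 4 subunits of GINS, the complex that joins CDC45 and MCM2 to MCM7 in the active helicase, did not move alike. Gins1 (chr2:150905400-150931280) had 22.8 and 24.6 FPKM in MII oocytes, 1.39 and 2.83 FPKM in 2-cell controls and 33.0 and 34.2 FPKM in 4-cell controls. Its values in Ago2 kd embryos were 3.90 and 5.81 FPKM at the 2-cell stage and 89.3 and 159 FPKM at the 4-cell stage. It fell by 3.03 on the log2 scale (SE 0.43, adjusted p = 0.00359) and rose by 3.52 (SE 0.43, adjusted p = 0.00109) in limma, and both calls were kept in all 20 alternatives. The Ago2 kd values were above the controls at both stages without overlap, by 0.93 (SE 0.43, adjusted p = 0.938) and 1.80 (SE 0.43, adjusted p = 0.0795), and the latter passed with the libraries scaled to the same median or quantile normalized.

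Gins3 (chr8:95633453-95645060) had 9.46 and 7.96 FPKM in MII oocytes, was listed at 0 in all 4 2-cell libraries, control and Ago2 kd, and had 61.5 and 125 FPKM in 4-cell controls. It was listed at 0 in 4-cell Ago2 kd replicate 1, the library in which it was among the members lost. In replicate 2 it had 108 FPKM, between the control values. The rise to 4-cell controls passed (adjusted p = 0.0327, limma; no fold against 0), though not in 10 of 20 alternatives, among them each analysis that left out 1 library other than those of 4-cell Ago2 kd. Gins4 (chr8:23226616-23237659) had between 125 and 329.8 FPKM in each library, with 243 and 329.8 FPKM in MII oocytes, 159 and 125 FPKM in 2-cell and 268 and 261 FPKM in 4-cell controls, and 129 and 193 FPKM in 2-cell and 234 and 299 FPKM in 4-cell Ago2 kd. The control values at the 4-cell stage were above those at the 2-cell stage by 0.91 (SE 0.30, adjusted p = 0.0493, limma), and this call was not kept in 15 of 20 alternatives, the replicate block (adjusted p = 0.0544) among them. Gins2 stayed between 0.340 and 6.23 FPKM and did not pass.

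Mcm10 and Cdc45, which act where the loaded helicase becomes active, were both lower in 2-cell controls than in oocytes and 4-cell controls without overlap. Mcm10 (chr2:4989714-5012791) had 27.8 and 36.8 FPKM in MII oocytes, 2.40 and 2.31 FPKM in 2-cell controls and 106 and 40.5 FPKM in 4-cell controls. Its Ago2 kd values were 2.43 and 2.05 FPKM at the 2-cell stage, equal to control within the spread, and 5.62 and 30.6 FPKM at the 4-cell stage. It fell by 3.30 on the log2 scale (SE 0.78, adjusted p = 0.0255) and then rose by 4.31 (SE 0.78, adjusted p = 0.00551) in limma. The fall was not kept in 6 of 20 alternatives, those without any 1 oocyte or 2-cell control library (highest adjusted p = 0.129), without the filter and with the same total. Both 4-cell Ago2 kd values lay below both controls, with a difference of -2.20 (SE 0.78, adjusted p = 0.227), which was -1.07 (adjusted p = 0.431) without Ago2 kd replicate 1 and -3.33 (adjusted p = 0.0316) without replicate 2.

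Cdc45 (chr16:18780447-18811987) had 9.28 and 7.39 FPKM in MII oocytes, 0 and 0.0900 FPKM in 2-cell controls, 0.145 and 0.0980 FPKM in 2-cell Ago2 kd, 8.12 and 24.1 FPKM in 4-cell controls, and 0.0370 and 15.8 FPKM in 4-cell Ago2 kd. All 4 libraries at the 2-cell stage were below 0.2 FPKM. The difference from oocytes to 2-cell controls did not pass (-3.15, SE 1.20, adjusted p = 0.116, limma). The rise to 4-cell controls was 3.86 (SE 1.20, adjusted p = 0.041, limma), and it did not pass in 10 of 20 alternatives, which included leaving out any 1 library other than those of 4-cell Ago2 kd.

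Among polymerase alpha, primase and the replicative polymerases, Pola2 and Prim2 were called. Pola2 (chr19:5940542-5964202), the second subunit of polymerase alpha, had 78.3 and 74.0 FPKM in MII oocytes, 9.99 and 11.0 FPKM in 2-cell controls and 34.9 and 30.0 FPKM in 4-cell controls, and its replicates lay close together. It fell by 2.75 on the log2 scale (SE 0.32, adjusted p = 0.00162) and rose by 1.54 (SE 0.32, adjusted p = 0.00915) in limma, and the rise did not pass with quantile normalization (1.08, adjusted p = 0.0968). After knockdown it had 16.5 and 14.4 FPKM at the 2-cell stage, above both controls, and 25.2 and 17.4 FPKM at the 4-cell stage, below both controls. Neither difference passed, at 0.52 (SE 0.32, adjusted p = 1) and -0.60 (SE 0.32, adjusted p = 0.45), and the difference between these effects was -1.12 (SE 0.45, unadjusted p = 0.0422, adjusted p = 0.344, limma).

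Prim2 (chr1:33453810-33669795), the large subunit of primase, had 36.2 and 13.0 FPKM in MII oocytes, 0.0805 and 0.430 FPKM in 2-cell controls and 1.97 and 6.03 FPKM in 4-cell controls. The Ago2 kd libraries had 2.39 and 1.92 FPKM at the 2-cell stage and 3.12 and 22.3 FPKM at the 4-cell stage. The oocyte values were above all control embryo values, and the fall was 4.20 on the log2 scale (SE 0.91, adjusted p = 0.0184, limma), not kept without oocyte replicate 1 or without either 2-cell control library. Prim1 (chr10:128015168-128030037), the catalytic subunit, was listed at 0 in both oocyte libraries and had 0.0809 and 0.328 FPKM in 2-cell controls, 0.898 and 3.21 FPKM in 2-cell Ago2 kd, 0.773 and 0.246 FPKM in 4-cell controls and 0.292 and 1.19 FPKM in 4-cell Ago2 kd. Both of its 2-cell Ago2 kd values were above both controls, by 1.24 (SE 0.45, unadjusted p = 0.0277), which did not pass after adjustment (adjusted p = 0.669, limma). Pold3 had between 29.2 and 127 FPKM in each library, Pold2 between 0.491 and 3.74 FPKM and Pole between 0.00404 and 20.1 FPKM, and none of them passed. Pola1 and Pold1 stayed at or below 0.725 FPKM.

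In the clamp loader, Rfc2 (chr5:134581366-134601805) ran against most members, at low levels. It had 0.732 and 0.241 FPKM in MII oocytes, 3.46 and 3.52 FPKM in 2-cell controls and 0.436 and 0.224 FPKM in 4-cell controls. In Ago2 kd embryos it had 4.13 and 5.09 FPKM at the 2-cell stage and 5.92 and 4.44 FPKM at the 4-cell stage, so the 4-cell Ago2 kd libraries held the level of the 2-cell stage while the 4-cell controls did not. Rfc2 rose by 1.62 from oocytes to 2-cell controls (SE 0.35, adjusted p = 0.0193), fell by 1.76 on the log2 scale to 4-cell controls (SE 0.35, adjusted p = 0.00832) and was higher by 2.21 in 4-cell Ago2 kd than in 4-cell control embryos (SE 0.35, adjusted p = 0.0195) in limma. The first of these calls was lost in 4 of 20 alternatives, with the 2 groups alone (adjusted p = 0.0595) and without oocyte replicate 2 (0.101) or either 2-cell control (0.0593 and 0.0701). The last call was kept in 17 of 20 alternatives and lost with quantile normalization, with the 2 groups alone and without 4-cell control replicate 2 (adjusted p = 0.0706). The difference of the effect between stages did not pass (1.90, SE 0.50, adjusted p = 0.143). Rfc1, the large subunit, was at 14.1 to 30.0 FPKM in 1 replicate of each group and at or below 0.149 FPKM in the other. Rfc3 ranged from 0.223 to 10.8 FPKM, Rfc4 stayed at or below 0.579 FPKM, and Rfc5 was above 1 FPKM in 1 library only (9.17 FPKM, 2-cell control replicate 2).

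Of the genes of RPA, the trimer that coats single-stranded DNA, Rpa2 rose from oocytes to 2-cell controls and Rpa3 fell from 2-cell to 4-cell controls. Rpa2 (chr4:132768332-132778752), the middle subunit, had 0.174 and 0.173 FPKM in MII oocytes, 43.1 and 68.4 FPKM in 2-cell controls and 280.3 and 245 FPKM in 4-cell controls. The knockdown libraries had 0.143 and 38.9 FPKM at the 2-cell stage and 425 and 310.2 FPKM at the 4-cell stage. A value as low as in oocytes was thus also listed in 2-cell Ago2 kd replicate 1 but not in replicate 2. The oocyte values therefore do not show that the mRNA was missing there. The listed level of Rpa2 went from near 0 in oocytes to one of the highest levels of the members in 4-cell embryos. The rise was 5.56 at the first step (SE 1.42, adjusted p = 0.0337, limma), while the next step did not pass (2.25, adjusted p = 0.257). That call was not kept in 9 of 20 alternatives, which included leaving out any 1 library of oocytes, 2-cell controls or the 4-cell groups, and without both 2-cell Ago2 kd libraries it was kept (adjusted p = 0.00056).

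Rpa3 (chr6:8255936-8259173), the small subunit, had 152 and 221 FPKM in MII oocytes, 74.3 and 57.1 FPKM in 2-cell controls and 44.7 and 89.5 FPKM in 2-cell Ago2 kd. It was listed at 0 in both 4-cell controls and had 2.06 and 5.19 FPKM in 4-cell Ago2 kd. The fall to the 4-cell stage passed in limma (adjusted p = 0.000245) and in all 20 alternatives, and no fold is given against 0. The higher level in 4-cell Ago2 kd embryos had an unadjusted p of 0.00421 and did not pass after adjustment (adjusted p = 0.08, limma), except with a pseudocount of 0.1, with the libraries scaled to the same total or with quantile normalization. Rpa1, the large subunit, had 11.1 and 5.93 FPKM in MII oocytes and at most 0.0758 FPKM at the 4-cell stage, and did not pass.

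Of the remaining members, Fen1, the flap nuclease, was below 0.6 FPKM in MII oocytes and had 7.78 and 12.4 FPKM in 4-cell controls, and Lig1 stayed at or below 0.137 FPKM. Rrm2, the small subunit of ribonucleotide reductase, had 13.0 and 10.3 FPKM in MII oocytes, 13.3 and 17.1 FPKM in 2-cell controls and 29.8 and 27.0 FPKM in 4-cell controls. Its Ago2 kd values were 4.52 and 11.2 FPKM at the 2-cell stage, below both controls, and 36.0 and 51.8 FPKM at the 4-cell stage, above both. No comparison of Fen1 or Rrm2 passed after adjustment.

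**Figure D4:**
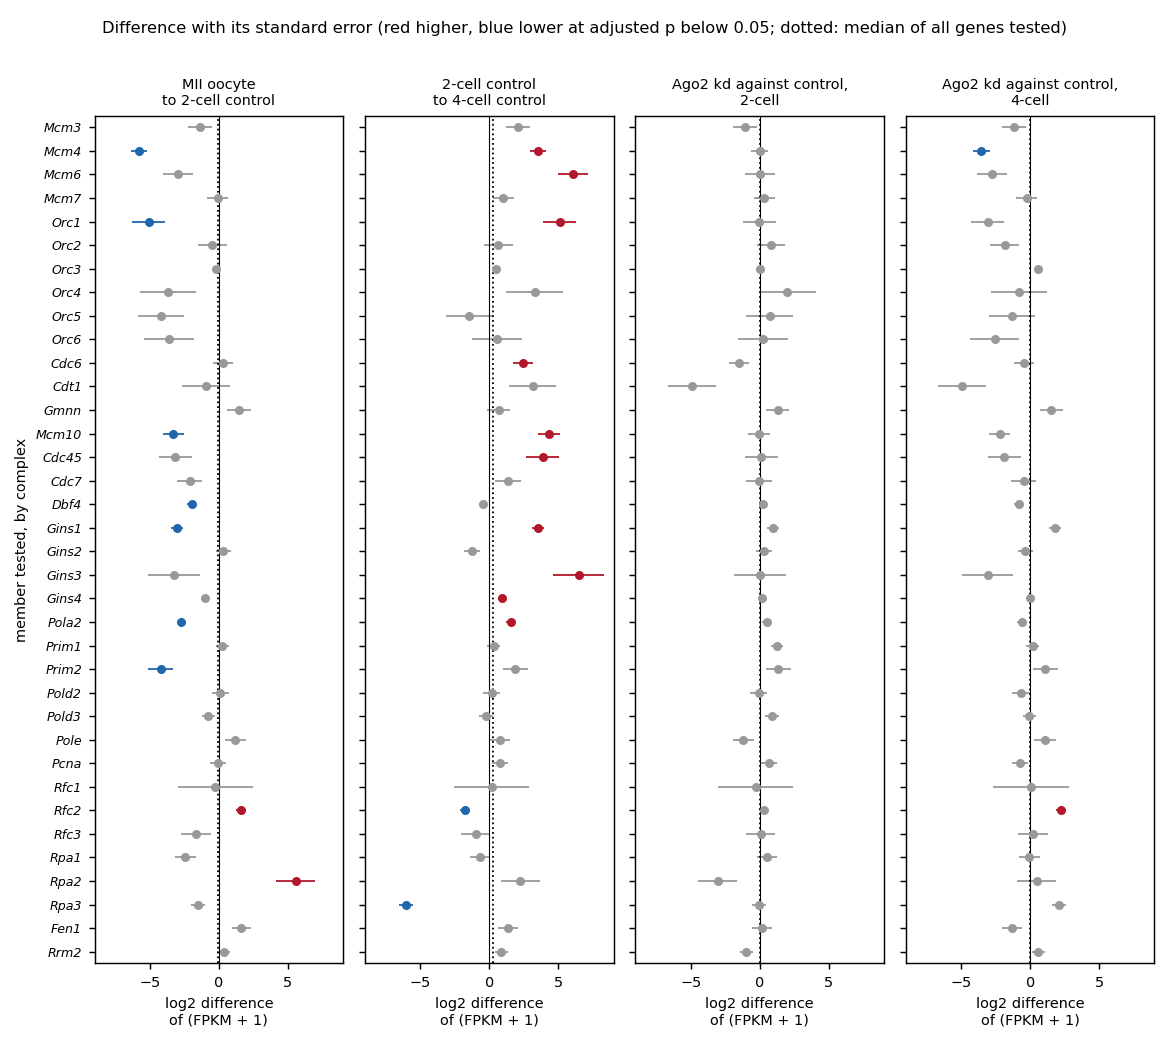
Log2 difference of (FPKM + 1) with its standard error (horizontal bars) for the 36 members tested, in 4 comparisons (panels); red points are higher and blue points lower at an adjusted p below 0.05 in limma, and the dotted line is the median of all genes tested. There are 2 red and 7 blue points from oocytes to 2-cell controls, 10 red and 2 blue from 2-cell to 4-cell controls, none in the 2-cell Ago2 kd panel, and 1 of each color in the 4-cell Ago2 kd panel.

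Comparing Ago2 kd with control embryos addressed the study's question of what depends on AGO2. At the 2-cell stage no member passed after adjustment in limma, where 0.332% of all genes were higher and 0.218% lower. Before adjustment, p was below 0.05 for Prim1, which was higher, and Cdt1, which was lower, that is 1 of 36 members in each direction, against 2.96% and 3% of all genes. The median log2 difference was 0.13 over the members and 0 over all genes. Among genes with no group at 0 it was 0.21 over the members and -0.01 over all genes.

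At the 4-cell stage 1 member was higher in Ago2 kd embryos (Rfc2) and 1 lower (Mcm4) after adjustment, with 1.23% of all genes higher and 2.77% lower. Before adjustment, p was below 0.05 in 3 members with more mRNA in Ago2 kd (Gins1, Rfc2 and Rpa3) and 6 with less (Cdt1, Mcm4, Mcm6, Mcm10, Orc1 and Dbf4), beside 7.37% and 8.07% of all genes. Both Ago2 kd values lay below both controls in 10 members and above them in 6, where the same was so for 16.9% and 20.1% of all genes. The median log2 difference was -0.45 over the members and 0 over all genes. Mitochondrial genes and rRNA took 13.1% and 16.1% of all FPKM in 4-cell Ago2 kd and 11.3% and 6.92% in 4-cell controls, and their part in these differences was not tested. These values depended on the replicate that stood apart: without 4-cell Ago2 kd replicate 1, the median was 0.16 over the members. Without replicate 2, which left only the library with many lost values, it was -0.39. The median over all genes was 0 in both. Leaving out 4-cell control replicate 2, no member was higher.

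The difference of the Ago2 kd effect between the stages passed for no member, where 0.642% of all genes had a higher and 1.64% a lower effect at the 4-cell stage after adjustment in limma. At an unadjusted p below 0.05, the effect was higher at the 4-cell stage in 3 members (Rrm2, Rfc2 and Rpa3) and lower in 3 (Mcm4, Pola2 and Dbf4), beside 6.27% and 7.11% of all genes. That of Mcm4 equals its 4-cell difference, because each 2-cell library listed it at 0. For Rrm2 the difference of effects was 1.57 (SE 0.65, adjusted p = 0.365) and for Dbf4 -1.08 (SE 0.43, adjusted p = 0.334).

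Beyond the members, 49 other genes of DNA replication and its control were listed, of which 41 had a row and 32 were tested. From oocytes to 2-cell controls 5 of the 32 fell (Lrr1, Pole3, Pole4, Timeless and Donson) and none rose in limma, with 14.2% and 6.54% of all genes. From 2-cell to 4-cell controls 4 rose (Dtl, Lrr1, Tk1 and Topbp1) and 6 fell (Ccne2, Dut, Pole4, Rrm2b, Cul4b and E2f2), with 21.1% and 17.5% of all genes. In Cul4b and E2f2 the 2-cell Ago2 kd libraries held identical values, and without those libraries the falls still passed (adjusted p = 0.00218 and 0.0123). Ribonucleotide reductase has an alternative small subunit, Rrm2b, which had 63.2 and 61.9 FPKM in 2-cell controls and was listed at 0 in all 4 libraries of the 4-cell stage, where Rrm2 had its highest values.

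Of the 32 tested, 1 was lower (Pole3) and 0 higher in 2-cell Ago2 kd embryos, with 0.218% and 0.332% of all genes. At the 4-cell stage 1 was lower (Dtl) and 1 higher (Rnaseh2a), with 2.77% and 1.23% of all genes. These calls were not put through the alternative analyses used for the members. Dtl, whose product directs CDT1 to degradation during replication, had 0.973 and 0.203 FPKM in 2-cell controls and 2.54 and 2.45 FPKM in 2-cell Ago2 kd, and 109.9 and 90.8 FPKM in 4-cell controls against 1.84 and 1.32 FPKM in 4-cell Ago2 kd. Its 4-cell Ago2 kd replicates were alike and both far below control, by -5.30 (SE 0.39, adjusted p = 0.000629), and the effect differed between the stages (-6.48, SE 0.55, adjusted p = 0.00253, limma). Pole3, a small subunit of polymerase epsilon, had 35.8 and 44.5 FPKM in 2-cell controls against 0.269 and 0.413 FPKM in 2-cell Ago2 kd (-4.93, SE 0.40, adjusted p = 0.00649, limma). At the 4-cell stage it had 47.7 and 31.2 FPKM in controls and 42.0 and 25.5 FPKM in Ago2 kd embryos, and the difference of these effects was 4.71 (SE 0.56, adjusted p = 0.00895). Rnaseh2a, the catalytic subunit of RNase H2, had 0.0971 and 0.217 FPKM in 4-cell controls and 3.02 and 2.76 FPKM in 4-cell Ago2 kd (1.75, SE 0.18, adjusted p = 0.00268), and its effect also differed between the stages (1.85, SE 0.26, adjusted p = 0.0152).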

How the data were processed

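RNA-seq of 10 libraries (5 groups of 2) was deposited by the authors as 1 table of FPKM per gene name. Per the processing notes and methods, reads were aligned with HISAT2 (2.1.0) to mm10 and FPKM were computed with StringTie; how several transcripts became a single row is not given in the sources used here. FPKM hold no read counts, so depth is unknown and no counting interval is given. Differences were fitted as log2(FPKM + 1) with limma 3.58.1 (R 4.3.3), 1 mean per group over all 10 libraries (5 residual degrees of freedom), with a trended prior, for 8726 genes, those that reached 1 FPKM in 2 or more libraries. This scale understates the change of low genes. P-values are two-sided with Benjamini-Hochberg adjustment over all genes, called below 0.05. With 2 against 2 libraries an exact permutation test cannot go below p = 0.333 and was not used. The fit was tested on simulated data with normal noise and 200 changed genes. That simulation did not model values lost in a single library or values shared between libraries. Members called in any comparison, those with an unadjusted p below 0.05 in an Ago2 kd comparison and the 3 highest in oocytes are given in full. The rule picks rows by gene name alone, but the members and gene lists were chosen with earlier results of these data known. Alternatives changed the pseudocount (0.1), filter, scaling, replicate block, samples and variance prior, or left out a library. Gene positions are from GENCODE, promoters from RefSeq (GRCm38.p6). Figures used matplotlib 3.10.9.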

Additional observations from a re-analysis of the deposited data

How the results depend on the processing

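Alternatives were run for single members that were called, or had an unadjusted p below 0.05 for Ago2 kd, in limma. No such difference changed direction in the alternatives (20, or 19 for Ago2 kd at the 2-cell stage). Other differences, such as those of Orc5, Orc6 and Gins3 for Ago2 kd at the 4-cell stage, were not followed in this way. However, 3 medians changed direction when 1 library was left out. The median for Ago2 kd at the 2-cell stage was 0.13 and became -0.0038 without 2-cell control replicate 2. Without 4-cell Ago2 kd replicate 1, the median at the 4-cell stage went from -0.45 to 0.16 and that of the difference between stages from -0.59 to 0.03. Of 23 calls of members 9 were kept in all of them: Mcm4, Gins1 and Pola2 from oocytes to 2-cell controls, and Mcm4, Mcm6, Mcm10, Gins1, Rfc2 and Rpa3 from 2-cell to 4-cell controls. The causes of the differences that follow were not tested.

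From oocytes to 2-cell controls, 1 member was higher (2 as reported) without the filter and with only the groups compared, and lower members (7 as reported) numbered 4 with libraries scaled to the same total and 12 with only the groups compared. The median of -1.19 was -0.14 with the same total (all genes 0.42) and -0.30 with quantile normalization (all genes 0.01). From 2-cell to 4-cell controls, 6 members were higher (10 as reported) without the filter. For Ago2 kd at the 4-cell stage, 2 members were higher (1 as reported) with a pseudocount of 0.1, the same median, the same total or quantile normalization and 0 with only the groups compared, and 0 were lower (1 as reported) with only the groups compared or without both 2-cell Ago2 kd libraries. The difference of the Ago2 kd effect between stages was higher in 1 member and lower in 1 (0 and 0 as reported) with a pseudocount of 0.1 and with the same total. Leaving out both 2-cell Ago2 kd libraries, or the genes with identical values in them, was chosen after seeing the data.

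Leaving out 1 library at a time, 0 to 2 members were higher and 4 to 12 lower from oocytes to 2-cell controls (median -1.61 to -1.06), and 5 to 12 were higher and 2 lower from 2-cell to 4-cell controls (median 0.88 to 1.43). For Ago2 kd, 0 were higher and 0 to 1 lower at the 2-cell stage (median -0.0038 to 0.24), and 0 to 1 were higher and 0 to 7 lower at the 4-cell stage (median -0.69 to 0.16). The difference of these effects was higher in 0 to 1 and lower in 0 to 3 (median -0.96 to 0.03). Where this left a group with 1 library, that library was assumed to vary like the other groups. The shares of all genes called in these fits are not given, so the counts are not read as results about the members.

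Between groups, the deviations of samples with the same replicate number from their group means correlated by -0.09 to 0.09 over genes. Whether such samples shared a batch or an origin cannot be told from this. With the replicate number as a block, the calls of Cdc6 (adjusted p = 0.0555) and Gins4 (adjusted p = 0.0544) from 2-cell to 4-cell controls were lost in limma and no count of calls moved by over 1.5 times.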

Other observations

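Rfc1 had 28.8, 20.7, 14.1 and 26.9 FPKM in replicate 1 of MII oocytes, 2-cell controls, 2-cell Ago2 kd embryos and 4-cell controls, and at most 0.149 FPKM in replicate 2 of each. In 4-cell Ago2 kd embryos the order was the other way, with 0.0535 FPKM in replicate 1 and 30.0 FPKM in replicate 2.

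The 7 members below the filter had a median of 6 annotated transcripts in GENCODE (4 to 12), and the 36 tested a median of 5 (1 to 13).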
